A study of Mus musculus with 58 samples.

Results

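PU.1 sites that were called as peaks in hematopoietic stem cells (HSCs) of calorie-restricted old mice, and in no library of ad lib fed or refed old mice, were described here. A site entered the set when a PU.1 peak of the first library of Old Caloric Restricted mice (OCR replicate 1) overlapped by at least 1 bp a peak of OCR replicate 2, and overlapped no peak of either Old Ad Libitum (OAL) library or either Old Caloric Restricted Re-Fed (OCRRF) library. This gave 365 of the 5464 peaks of OCR replicate 1, or 6.68%. The 6 libraries together held 20341 peaks. These 365 are called OCR-only sites below, which is a statement about peak calls and not about the amount of PU.1 bound, since the signal at these places in the OAL and OCRRF libraries was not analysed here.

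All libraries came from bone marrow HSCs of wild-type male C57BL/6 mice, sorted as Lin- Sca-1+ c-Kit+ CD34- Flk2- CD150+ cells. Old mice, aged 24 to 26 months, were fed ad lib (OAL), kept on 40% caloric restriction (CR) for life (OCR), or kept on CR and then given free access to food for 4 weeks (OCRRF). The labels call the ad lib PU.1 libraries OWT. Young mice, aged 3 to 4 months, were fed ad lib (YAL) or kept on short-term CR (YCR). PU.1 chromatin immunoprecipitation with sequencing (ChIP-seq) had 2 libraries per diet, RNA-seq had 4 libraries each of OAL, OCR, YAL and YCR and 2 of OCRRF, accessibility by ATAC-seq had 4 OCR and 2 OCRRF libraries, and the histone marks had 2 OCR libraries each. The ATAC-seq and histone libraries of OAL mice were not analysed here. The labels name a Thermo antibody for PU.1 replicate 1 of each diet and give a batch for replicate 2 only, so that the replicates of a diet may differ in antibody as well as in cells. The labels do not say whether libraries of a group came from separate animals, and p-values measure only the spread between these libraries.

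PU.1, the product of Spi1, is a transcription factor of the ETS family that binds DNA at a GGAA core, with a preference for purines on its upstream side. It is needed for the myeloid and B lymphoid lineages and is present at a low level in HSCs, where it restrains cell cycle entry. Its sites lie both at promoters and at distal enhancers, often beside sites of RUNX, C/EBP and other blood cell factors.

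The sequences of 10 OCR-only sites show what these regions look like. They were read from the mm10 reference (GRCm38.p6), are 121 bases long, centred on the peak summit and written 5′ to 3′ on the strand that carries the motif. Capitals mark the PU.1 octamer GAGGAAGT where the window holds it, and otherwise the GGAA core nearest to the summit. The first pair belongs to the strongest sites. The window near Olfr446, an olfactory receptor gene, is chr6:42929197-42929317 on the minus strand, 2.02 kb downstream of the start site. The window near Nos3, the endothelial nitric oxide synthase gene, is chr5:24365663-24365783 on the plus strand, inside the promoter as defined here.
Olfr446 site: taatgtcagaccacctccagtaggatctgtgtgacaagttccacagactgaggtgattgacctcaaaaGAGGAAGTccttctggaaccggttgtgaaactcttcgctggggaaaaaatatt
Nos3 site: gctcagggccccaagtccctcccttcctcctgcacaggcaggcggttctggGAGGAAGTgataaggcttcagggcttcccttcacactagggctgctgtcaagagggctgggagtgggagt
The next 5 lie within 1 kb of the start site of a gene whose RNA differed between OCR and OAL. The Cit window is chr5:115845069-115845189 and the Timeless window chr10:128231723-128231843, both on the minus strand. The Chad window is chr11:94564560-94564680 on the minus strand. The Junb window is chr8:84978693-84978813 on the plus strand and the Rangap1 window chr15:81730030-81730150 on the minus strand, and these 2 hold no octamer.
Cit site: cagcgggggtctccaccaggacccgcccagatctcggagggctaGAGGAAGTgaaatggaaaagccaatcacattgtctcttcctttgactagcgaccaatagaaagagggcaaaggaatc
Timeless site: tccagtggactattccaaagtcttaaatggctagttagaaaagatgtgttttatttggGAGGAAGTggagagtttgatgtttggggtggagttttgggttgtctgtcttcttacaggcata
Chad site: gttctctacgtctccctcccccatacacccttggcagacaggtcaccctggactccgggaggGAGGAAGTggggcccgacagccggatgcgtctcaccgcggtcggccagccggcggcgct
Junb site: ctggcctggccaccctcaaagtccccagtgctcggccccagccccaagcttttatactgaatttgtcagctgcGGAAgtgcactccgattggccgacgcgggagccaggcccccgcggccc
Rangap1 site: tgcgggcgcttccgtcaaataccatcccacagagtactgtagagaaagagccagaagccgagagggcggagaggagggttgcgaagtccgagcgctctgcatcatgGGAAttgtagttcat
The last 3 are shown because they lie near transcription factor genes of blood cells, or because their accessibility differed between OCR and OCRRF. The Cebpa window is chr7:35150992-35151112 on the plus strand, 31.7 kb downstream of the Cebpa start site. The Fli1 window is chr9:32508882-32509002 on the minus strand, in an intron. The Adgrl2 window is chr3:149957076-149957196 on the minus strand, in an intergenic region with Adgrl2 as the nearest gene.
Cebpa site: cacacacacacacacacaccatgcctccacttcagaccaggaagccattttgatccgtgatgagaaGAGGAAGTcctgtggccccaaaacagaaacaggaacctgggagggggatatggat
Fli1 site: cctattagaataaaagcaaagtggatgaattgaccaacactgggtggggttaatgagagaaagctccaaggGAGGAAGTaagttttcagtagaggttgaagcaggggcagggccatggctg
Adgrl2 site: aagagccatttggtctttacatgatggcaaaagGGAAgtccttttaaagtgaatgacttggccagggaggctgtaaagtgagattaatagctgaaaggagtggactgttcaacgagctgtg

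OCR-only sites were weak peaks. Their fold enrichment over background, as given by the peak caller, had a median of 6.82 in OCR replicate 1, with a range of 2.71 to 11.4, and a median of 6.72 in OCR replicate 2, with a range of 2.74 to 12.1. The median −log10 q-value was 6.49 and 6.18 in the 2 libraries. Sites shared by all 6 libraries numbered 1420 and had median fold enrichments of 13.5 and 12.0, while the 1486 peaks found in OCR replicate 1 alone had a median of 6.08. The sites were chosen by the PU.1 peak calls of these 6 libraries, from which the values come, so they are a description, without a test.

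The OCR-only sites were missing from the strongest peaks. When the 5464 peaks of OCR replicate 1 were split into 5 equal groups by fold enrichment, the groups held 104, 118, 95, 48 and 0 of the OCR-only sites from weakest to strongest. Of the sites shared by all 6 libraries, 934 were in the strongest group. The OCR-only sites had a median width of 253 bp, against 365 bp for the shared ones. Across all peaks of OCR replicate 1, the median fold enrichment rose with the number of libraries that called the peak, from 6.08 for 1 library through 6.84, 7.50, 8.31 and 9.48 to 13.5 for all 6.

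The number of peaks differed between libraries in the same direction as the result. OCR libraries had 5464 and 3852 peaks, OAL libraries 3046 and 2900, and OCRRF libraries 2817 and 2262. At the 1420 sites that all libraries called, the median fold enrichment was 13.5 and 12.0 in OCR, 11.3 and 10.7 in OAL, and 10.5 and 9.41 in OCRRF. Both OCR libraries were therefore above the other 4 at sites that every library shares. In the sequencing depths that the study lists for PU.1, the libraries named OCR held fewer reads after removal of duplicates than those of OAL. That list gives the OCR names a second time and names no OCRRF library, so depth against OCRRF cannot be read from it with certainty. The part of depth in the peak numbers was not tested. The same rule with the diets exchanged gave 23 OAL-only sites and 9 OCRRF-only sites. Within replicate 1 of each diet, sites called in OCR alone numbered 2281, in OAL alone 272 and in OCRRF alone 271. Within replicate 2 the numbers were 1272, 481 and 233.

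When only the 2262 strongest peaks of each library were used, a step chosen after the data were seen, 50 sites were called only in OCR, 37 only in OAL and 35 only in OCRRF. Of these 50 sites, 19 belonged to the 365. Whether the larger number of OCR-only sites reflects PU.1 binding or the strength of the immunoprecipitation cannot be told apart in these libraries.

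**Figure D1:**
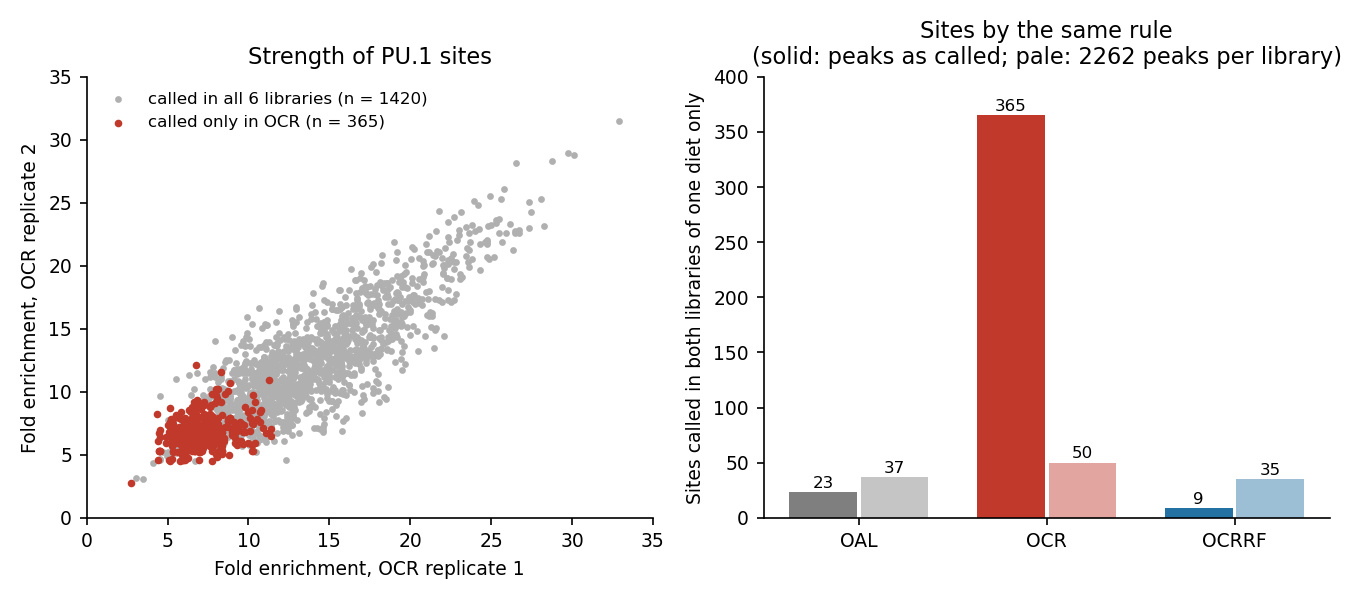
Left, fold enrichment of PU.1 sites in OCR replicate 1 (horizontal axis) and OCR replicate 2 (vertical axis), one point per site, for OCR-only sites and sites shared by all 6 libraries. Right, the number of sites called in both libraries of one diet only, with peaks as called (solid bars) and with 2262 peaks per library (pale bars). The 365 OCR-only sites lie at the low end of both axes, and the bars fall from 365, 23 and 9 sites to 50, 37 and 35 for OCR, OAL and OCRRF.

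Distances to peaks of the excluded libraries follow in part from the rule and from the short peak lists of those libraries. They say nothing about PU.1 signal at the OCR-only sites. No OCR-only site had a peak of an OAL or OCRRF library within 1000 bp, and the median distance to the nearest one was 129248 bp. The closest was a site near Lrrc32, 1147 bp from such a peak, with a fold enrichment of 6.78. Just outside the rule, 420 sites of both OCR libraries were left out because a single other library also had a peak there: OAL replicate 1 at 142, OAL replicate 2 at 117, OCRRF replicate 1 at 103 and OCRRF replicate 2 at 58. Their median fold enrichment was 7.50. The left-out site with the smallest overlap, 68 bp, lay near Igf2r and had a fold enrichment of 5.81.

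The 10 strongest OCR-only sites were ranked by the smaller of the 2 fold enrichments, and the 8 described here lay near Olfr446, Nos3, Rnpep, Bcar3, Slc14a2, Ccdc90b, Zswim4 and Bcr. The Olfr446 site had fold enrichments of 11.3 in OCR replicate 1 and 10.9 in OCR replicate 2. The Nos3 site had 10.3 and 9.73, and the site in an intron of Rnpep, an aminopeptidase gene, had 10.4 and 9.21. Even these stayed below the median of the sites shared by all libraries. Of the 8, the sites near Olfr446, Nos3, Rnpep, Bcar3 and Zswim4 held the octamer. None of the 8 nearest genes was called for RNA between OCR and OAL, with edgeR adjusted p from 0.184 for Rnpep to 0.908 for Zswim4. Rnpep RNA was 55.0, 55.7, 61.2 and 60.1 CPM (counts scaled to the library size after TMM normalization) in OAL. In OCR it was 78.1, 73.9, 51.3 and 69.9 CPM, so that the groups overlapped. Bcr, known from the BCR-ABL fusion, had 40.4, 46.2, 40.5 and 43.3 CPM in OAL and 39.8, 37.3, 37.1 and 44.4 CPM in OCR, with an adjusted p of 0.745 in edgeR.

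Position relative to genes was taken from the peak summit and GENCODE protein-coding genes. Of the 365 OCR-only sites, 78 (21.4%) lay within 1 kb of a transcription start site, here called promoter sites, 124 (34.0%) in an intron, 148 (40.5%) between genes, 8 in an untranslated exon and 7 in a coding exon. Sites shared by all 6 libraries were at promoters in 18.5% of cases, in introns in 39.4% and between genes in 38.4%. The median distance to the nearest start site was 14977 bp for OCR-only sites and 15546 bp for shared sites. By position the OCR-only sites thus resembled the shared ones, and no test was made. Sites upstream of their nearest start site numbered 182, or 49.9%. The 365 sites had 360 nearest genes, and 263 sites lay within 50 kb of a start site. Adgrl2, Fggy, Mtmr3, Pkn2 and Zfp507 each were the nearest gene of 2 sites.

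Few OCR-only sites lay close to a shared PU.1 site. Within 10 kb of a shared site there were 4 of them, and the median distance to one was 437589 bp. These distances were not compared with those of other regions. Of the 262 genes with an OCR-only site within 50 kb, 16 (6.11%) were also the nearest gene of a shared site within 50 kb. Over all protein-coding genes this share was 4.63%. Chromosome 2 held 36 OCR-only sites, chromosome 1 held 32, chromosome X held 9 and chromosome Y held 0.

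**Figure D2:**
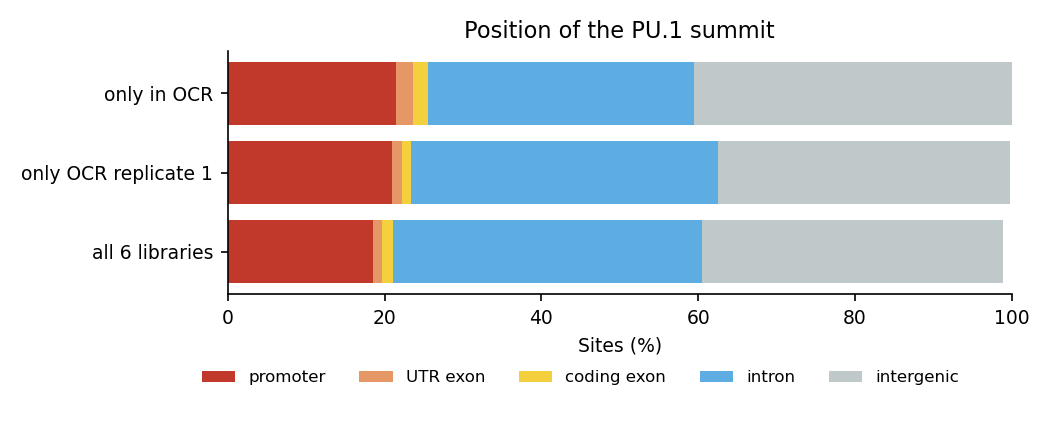
Share of sites (horizontal axis, percent) whose PU.1 summit lies at a promoter, in an untranslated exon, in a coding exon, in an intron or between genes, with one bar each for OCR-only sites, sites shared by all 6 libraries and peaks of OCR replicate 1 alone. Promoters make up 21.4%, 18.5% and 20.9% of the 3 classes.

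The DNA motif was the second measure that the rule did not use. The letters were searched on both strands in the 201 bp around each summit. The octamer GAGGAAGT was found in 110 of 365 OCR-only sites (30.1%), against 44.1% of the sites shared by all 6 libraries, 29.0% of the peaks of OCR replicate 1 alone and 0.959% of 730 windows of the same length 2 kb away on either side of the OCR-only sites. The shorter GAGGAA, which lies within the octamer, was found in 204 (55.9%), 68.1%, 56.4% and 19.7%. GGAAGT, added as a search after the data were seen and also part of the octamer, was found in 67.9%, 76.6%, 69.5% and 10.7%. The core GGAA is so short that 86.0% of the distant windows held it, against 99.2% of OCR-only sites. The motif content of OCR-only sites was thus near that of peaks called in OCR replicate 1 alone and below that of the shared sites, which were also the stronger peaks.

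The octamer sat at the summit. Its centre was a median of 14.0 bp from the summit in the 110 sites that held it, and 72 of them (65.5%) had it within 25 bp. In the bin from 0 to 20 bp of the summit there were 9.59 octamers per 100 OCR-only sites, 17.5 per 100 shared sites and 6.74 per 100 peaks of OCR replicate 1 alone. Whether strength follows the motif cannot be read from the OCR-only sites, which the same peak calls had chosen and which were all weak peaks. Their median fold enrichment in OCR replicate 1 was 6.88 with the octamer, 6.63 for the 94 sites with GAGGAA only and 6.93 for the 161 sites with neither. Of those 161, 109 held GGAAGT. The Timeless site printed above had its octamer 1.5 bp from the summit.

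**Figure D3:**
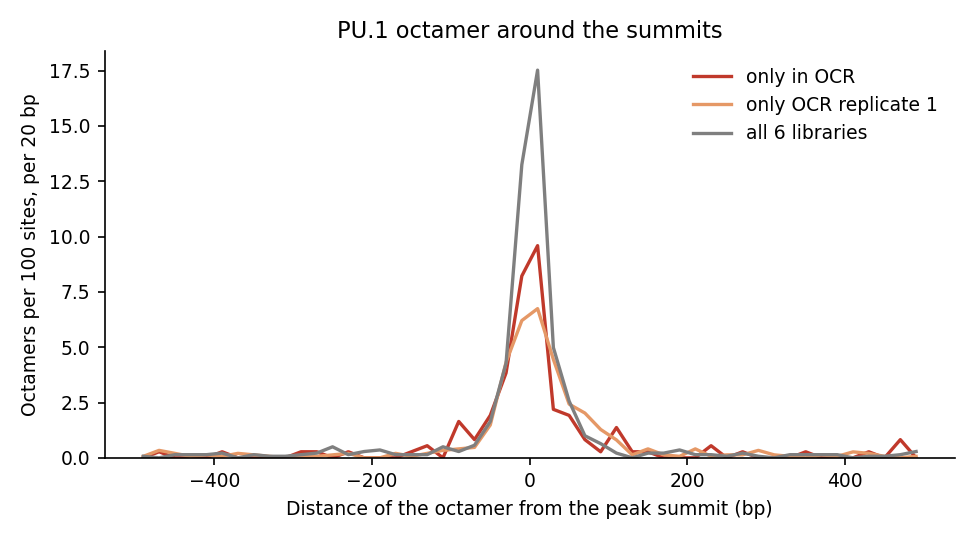
Number of octamers GAGGAAGT per 100 sites in bins of 20 bp (vertical axis) against their distance from the peak summit in bp (horizontal axis), for OCR-only sites, sites shared by all 6 libraries and peaks of OCR replicate 1 alone. All 3 lines peak at the summit, at 9.59, 17.5 and 6.74 per 100 sites in the bin from 0 to 20 bp.

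Motifs of blood cell factors outside the ETS family were at the level of the distant windows or near it. The RUNX letters TGTGGTNA were in 5.75% of OCR-only sites and 4.25% of distant windows, the GATA letters AGATAA in 9.59% and 10.1%, the C/EBP letters TTGCNNAA in 10.1% and 9.18%, the AP-1 letters TGANTCA in 6.03% and 5.62%, and the CTCF letters CCACNAGG in 3.56% and 3.70%. The IRF letters GAAANNGA, which can overlap an ETS site, were in 18.4% and 16.7%. Another ETS form, CCGGAAGT, common at promoters, was in 8 OCR-only sites (2.19%) and in 0 of the 730 distant windows. Of these 8 sites, 7 were among the 78 promoter sites (8.97%), beside 5.32% of the shared sites at promoters. Octamers were in 18 of the 78 promoter sites (23.1%) and in 92 of the 287 others (32.1%). These are matches of letters and were given no test. The median GC content was 47.8% in OCR-only and in shared sites and 44.8% in distant windows, and 9.59% of OCR-only sites were mostly repeat-masked, against 22.5% of distant windows.

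Accessibility was measured by ATAC-seq as counts in consensus peaks. OCR-only sites lay in accessible chromatin: 315 of 365 (86.3%) overlapped a consensus peak, as did 93.2% of shared sites and 81.6% of peaks of OCR replicate 1 alone. The 50 sites outside every consensus peak had a median fold enrichment of 7.11 in OCR replicate 1, and 18 of them held the octamer. Promoter sites were nearly all in a peak, 76 of 78. All 315 consensus peaks passed the filter on low counts. Their median level was 10.4 CPM in OCR and 10.2 CPM in OCRRF, against 2.69 and 2.64 CPM over all 131918 consensus peaks and 13.3 and 13.0 CPM at shared sites. By library, the median over the 315 was 10.4, 10.2, 10.1 and 10.0 CPM in OCR and 10.4 and 9.90 CPM in OCRRF, so that the diets overlapped.

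Refeeding left accessibility at nearly all OCR-only sites without a called difference. In edgeR's quasi-likelihood test over 123372 peaks, 1 of the 315 was called higher in OCR, where the background over all peaks was 0.0908%, and 0 were called higher in OCRRF, where it was 0.130%. A call needed a Benjamini-Hochberg adjusted p below 0.05, a fold above 1.5 and a mean log2 CPM above 1.5. At an unadjusted p below 0.05 there were 50 of 315 (15.9%), against 11.7% of all peaks tested. The OCR and OCRRF libraries did not overlap at 72 of the 315 (22.9%), beside a background of 20.4%. The median log2 fold change of OCR over OCRRF was 0.04 with quartiles of −0.09 and 0.24, and 186 (59.0%) were above 0, against a median of 0.01 and 50.9% over all peaks. The sites shared by all 6 libraries had a median of 0.02, with 54.1% above 0. Promoter sites had a median level of 22.1 CPM in OCR and 22.7 CPM in OCRRF, and the other sites 6.89 and 6.58 CPM.

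The called site lay in a region without a gene, 966581 bp from the start site of Adgrl2, an adhesion G protein-coupled receptor gene, which was the nearest one. Its accessibility was 21.7, 18.9, 21.1 and 15.1 CPM in OCR and 10.0 and 12.8 CPM in OCRRF. All 4 OCR libraries were above both OCRRF libraries. The log2 fold change was 0.76 ± 0.14 (SE), with an edgeR adjusted p of 0.00289. The call was lost when OCRRF replicate 1 was left out, and there were 2 called sites when OCR replicate 4 was left out. PU.1 fold enrichment there was 7.03 and 6.72, and the window held neither GAGGAA nor the octamer. Another OCR-only site with Adgrl2 as nearest gene had 3.96, 3.37, 3.23 and 3.87 CPM in OCR and 1.92 and 2.35 CPM in OCRRF, a log2 fold change of 0.76 and an adjusted p of 0.190. Adgrl2 RNA was 100, 116, 95.1 and 97.3 CPM in OAL and 85.5, 106, 87.9 and 99.6 CPM in OCR, overlapping between the diets, with an adjusted p of 0.691 in edgeR.

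A site near Commd7 had an adjusted p of 0.0391 in edgeR but a log2 fold change of 0.40, below the fold limit. Its means were 29.9 CPM in OCR and 22.8 CPM in OCRRF. The promoter site of Timeless had 30.8, 33.3, 29.8 and 30.2 CPM in OCR and 26.5 and 23.0 CPM in OCRRF. These groups did not overlap, but the log2 fold change of 0.33 had an adjusted p of 0.0963 in edgeR.

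**Figure D4:**
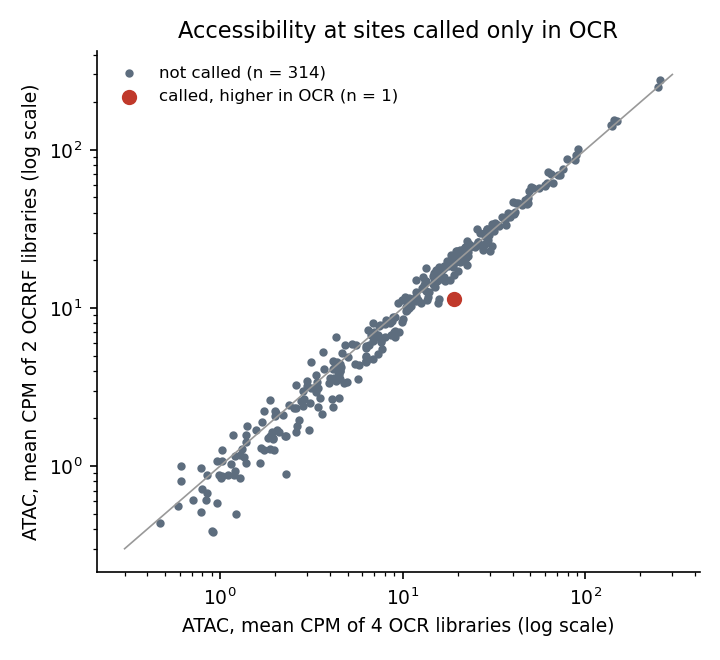
Mean ATAC-seq level of the 315 consensus peaks that overlap OCR-only sites, in CPM on log scales, in 4 OCR libraries (horizontal axis) and 2 OCRRF libraries (vertical axis). Points follow the line of equal values, and the marked point is the called site near Adgrl2, with means of 19.2 CPM in OCR and 11.4 CPM in OCRRF.

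The RNA of the nearest genes was tested in 3 comparisons fitted over all genes. Nearest genes of OCR-only sites were expressed at a median of 7.68 CPM per kb of exon in OCR and 8.11 in OAL, against 1.66 and 1.71 over all protein-coding genes and 7.76 and 8.11 for nearest genes of shared sites. At promoter sites the medians were 15.8 and 16.9. In bulk libraries, fewer cells of a type and less RNA per cell cannot be told apart.

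Between OCR and OAL, 341 of the 360 nearest genes passed the filter on low counts. Of these, 13 (3.81%) were called higher in OCR and 27 (7.92%) lower, at an edgeR adjusted p below 0.05 and a fold above 1.2. The background was 2.54% higher and 3.03% lower over all genes tested, and 3.57% and 4.19% over protein-coding genes. Nearest genes of sites shared by all 6 libraries had 4.38% higher and 7.14% lower. The total share called was 11.7% for OCR-only sites and 11.5% for shared sites. For both kinds of site the share lower in OCR was above the protein-coding background, while the share higher in OCR was near it. That background was not matched for expression, which had a median of 1.66 CPM per kb in OCR, against 7.68 for nearest genes of OCR-only sites. The part of expression level in the shares was not tested. The median log2 fold change over the 341 genes was −0.02, beside 0.02 over all genes. At promoter sites 4 of 78 genes were higher and 4 lower.

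Of 250 tested genes with an OCR-only site within 50 kb, 10 (4.00%) were called higher in OCR and 18 (7.20%) lower, beside the protein-coding background of 3.57% and 4.19%. Within the same distance, nearest genes of peaks of OCR replicate 1 alone had 4.03% higher and 4.83% lower. Those of shared sites had 5.03% and 6.78%. The genes described next are called genes with an OCR-only site within 50 kb that averaged 5 CPM or more with the OCR and OAL libraries apart. The lack of overlap left 22 of the 28 called genes, and the limit on CPM removed no more. This kept 5 of the 10 higher and 17 of the 18 lower genes. Groups of OCR and OAL that lie apart are thus part of the choice for each gene described next, and add nothing to its call. Their share among all called genes was not computed. Cit encodes citron kinase, which acts in cytokinesis, and its site lay 151 bp upstream of the start site. Its RNA was 11.5, 8.56, 9.46 and 10.9 CPM in OAL, 22.1, 23.9, 20.7 and 18.9 CPM in OCR, and 11.0 and 12.3 CPM in OCRRF. Every OCR library was above every OAL and OCRRF library. The log2 fold change was 1.10 ± 0.13 (SE) for OCR over OAL, with an edgeR adjusted p of 6.3e-07. Its PU.1 fold enrichments of 5.81 and 5.32 were below the median of OCR-only sites.

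Timeless encodes a protein of the replication fork protection complex, and its site, 282 bp upstream of the start site, lay within the neighbouring gene Mip. Timeless RNA was 16.4, 17.3, 19.2 and 15.4 CPM in OAL, 35.4, 48.3, 30.1 and 26.0 CPM in OCR, and 14.8 and 14.6 CPM in OCRRF. The OCR libraries did not overlap those of either other diet, and the log2 fold change over OAL was 1.05 ± 0.14 (SE), with an edgeR adjusted p of 4.37e-06. Tedc1, a centriole gene with its site 11.9 kb downstream of the start site, had 13.7, 12.6, 12.8 and 15.1 CPM in OAL, 36.8, 33.6, 21.8 and 23.0 CPM in OCR, and 12.2 and 12.7 CPM in OCRRF. It too was higher in every OCR library, with a log2 fold change of 1.10 ± 0.14 (SE) and an edgeR adjusted p of 2.9e-06.

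The other genes higher in OCR changed less. Sept11, a septin gene of the cytoskeleton with an intronic site 42.2 kb from the start site, had 72.4, 83.9, 78.1 and 62.6 CPM in OAL and 104, 127, 99.6 and 104 CPM in OCR, a log2 fold change of 0.56 with an edgeR adjusted p of 0.000144. Rangap1 encodes the activator of the Ran GTPase in nuclear transport, and its site lay 87 bp upstream of the start site. Rangap1 RNA was 69.2, 65.1, 68.1 and 55.1 CPM in OAL and 100, 93.3, 74.1 and 80.1 CPM in OCR, a log2 fold change of 0.45 with an edgeR adjusted p of 0.00287. In neither gene did the groups overlap, which the choice required. None of the 5 genes is in the cell cycle list used here, of which 45 of 53 tested genes were called higher in OCR and 0 lower, and no gene of that list had an OCR-only site within 50 kb.

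Among genes lower in OCR, Cyp26b1 had the largest change. It encodes an enzyme that breaks down retinoic acid and is on the list of genes that rise with age in HSCs. The site lay 30.2 kb away in an intron of Exoc6b, outside every consensus peak. Cyp26b1 RNA was 67.0, 86.4, 64.1 and 74.2 CPM in OAL, 20.8, 31.5, 31.4 and 40.5 CPM in OCR, and 59.5 and 48.9 CPM in OCRRF. The OCR libraries were below all others, with a log2 fold change of −1.21 ± 0.13 (SE) and an edgeR adjusted p of 2.31e-07. A shared PU.1 site also had Cyp26b1 as its nearest gene within 50 kb.

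Chad encodes chondroadherin, an extracellular matrix protein, and its site 427 bp upstream of the start site held an octamer and lay within Acsf2. Chad RNA was 11.3, 10.7, 12.6 and 10.2 CPM in OAL, 3.48, 7.11, 6.39 and 5.93 CPM in OCR, and 9.15 and 6.64 CPM in OCRRF. The OCR and OAL libraries did not overlap, with a log2 fold change of −0.95 ± 0.17 (SE) and an edgeR adjusted p of 0.000559, while OCR and OCRRF did overlap. Junb, a subunit of the AP-1 transcription factor with its site 35 bp upstream of the start site, had 95.5, 67.6, 59.9 and 70.6 CPM in OAL, 56.9, 48.6, 44.8 and 41.3 CPM in OCR, and 80.1 and 56.7 CPM in OCRRF. All OCR libraries were below all OAL libraries, with a log2 fold change of −0.60 ± 0.11 (SE) and an edgeR adjusted p of 0.000862.

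Inpp4b encodes a phosphoinositide phosphatase, and its intronic site lay 32.7 kb from the start site. Its RNA was 34.1, 39.7, 35.4 and 43.7 CPM in OAL and 20.6, 25.7, 22.7 and 26.8 CPM in OCR, a log2 fold change of −0.66 with an edgeR adjusted p of 0.000135. Wwtr1 encodes the Hippo pathway coactivator TAZ and is also on the list of genes that rise with age. With an intronic site 25.2 kb from its start site, it had 63.7, 59.3, 55.6 and 54.3 CPM in OAL and 37.3, 41.0, 39.2 and 41.8 CPM in OCR, a log2 fold change of −0.53 with an edgeR adjusted p of 0.000146. Ube2h, a ubiquitin-conjugating enzyme gene with a site 108 bp upstream, had 95.0, 91.1, 80.8 and 81.6 CPM in OAL and 65.8, 63.0, 56.4 and 67.6 CPM in OCR, a log2 fold change of −0.45 with an edgeR adjusted p of 0.000951. In all 3 genes the groups were apart, which the choice required.

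The remaining 4 of the 10 largest decreases had adjusted p nearer the threshold. They were Slc30a1, a zinc exporter gene, at −0.58 with an edgeR adjusted p of 0.0149, Emp2 at −0.52 with 0.0202, Lfng, which modifies Notch receptors, at −0.46 with 0.0273, and Synpo, an actin-binding protein gene, at −0.54 with 0.0339. Lfng RNA was 54.6, 41.1, 38.0 and 38.6 CPM in OAL and 22.6, 36.2, 32.5 and 32.9 CPM in OCR. The groups were apart in each of these genes because the choice required it. Lfng and Synpo lost their calls in several alternatives, and Slc30a1 and Emp2 each lost theirs when either of 2 libraries was left out.

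**Figure D5:**
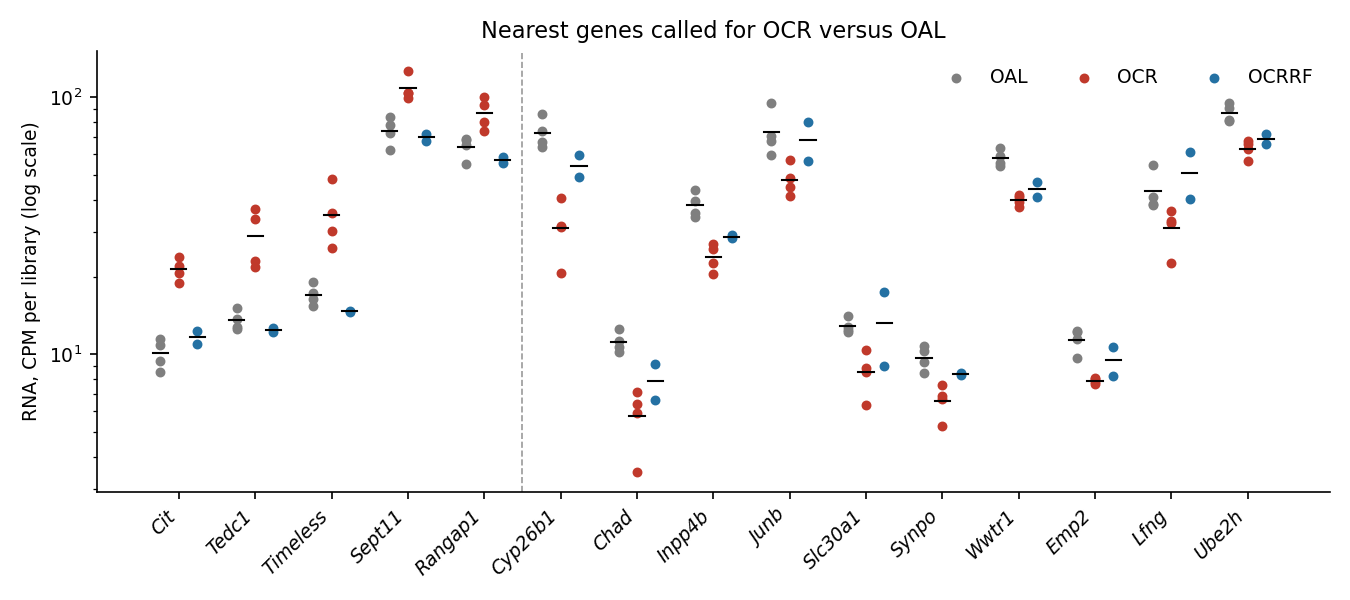
RNA level in CPM per library, on a log scale, of the 15 genes with an OCR-only site within 50 kb that had the largest called changes between OCR and OAL among those averaging 5 CPM or more with the diets apart, with points for OAL, OCR and OCRRF libraries. To the left of the dashed line are the 5 such genes higher in OCR and to the right the 10 genes lower in OCR. For Cit, OCR libraries lie between 18.9 and 23.9 CPM and OAL libraries between 8.56 and 11.5 CPM.

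Refeeding was compared with restriction using the same OCR libraries, so the 2 comparisons are not independent. Of 351 nearest genes tested between OCRRF and OCR, 7 (1.99%) were called higher in OCRRF and 21 (5.98%) lower, where the background was 0.694% and 2.71% over all genes and 0.966% and 4.28% over protein-coding genes. Nearest genes of shared sites had 1.98% and 6.03%. The total of 28 called nearest genes was 4 without OCRRF replicate 1, 13 without OCRRF replicate 2, 17 without OCR replicate 2 and 55 without OCR replicate 3. Over all genes, 20.4% of the calls were higher in OCRRF in edgeR and 9.27% in DESeq2. For Cit the log2 fold change of OCRRF over OCR was −0.87 with an edgeR adjusted p of 0.000612, for Timeless −1.25 with 9.3e-06, for Tedc1 −1.21 with 2.44e-05 and for Cyp26b1 0.81 with 0.000991. Chad, at 0.47 with an adjusted p of 0.306 in edgeR, and Wwtr1, at 0.15 with 0.588, were not called. Junb was called, at 0.52 with an adjusted p of 0.0263 in edgeR, although its OCR and OCRRF libraries overlapped. Lfng had 61.5 and 40.3 CPM in OCRRF, above every OCR library, with a log2 fold change of 0.72 and an edgeR adjusted p of 0.00362. All but Timeless and Tedc1 among the genes called for refeeding and named here lost their call without OCRRF replicate 1.

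In young mice no nearest gene was called. Of the 360, 295 passed the filter, with 0 higher and 0 lower between YCR and YAL, where the background was 0.0642% higher and 0.193% lower in YCR. In edgeR 29 of the 295 (9.83%) had an unadjusted p below 0.05, against 9.29% of all genes tested and 11.2% of protein-coding genes. DESeq2 called 7 nearest genes, where it called 181 genes higher and 271 lower in YCR over all 18680 genes. On simulated data with 2-fold changes this edgeR fit recovered 51% of the changed genes, against 90.5% for OCR versus OAL. Cit had 9.52, 17.0, 13.2 and 12.6 CPM in YAL and 27.9, 25.3, 20.5 and 21.1 CPM in YCR, groups that did not overlap, with a log2 fold change of 0.88 and an edgeR adjusted p of 0.163. Timeless had 41.2, 35.9, 27.0 and 38.5 CPM in YAL and 37.4, 26.1, 41.9 and 40.5 CPM in YCR, which did overlap, with a log2 fold change of 0.06. The difference between old and young mice, whose CR also differed in length, was not tested.

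The lists of blood cell genes were counted for OCR-only sites without a test. Over all protein-coding genes, 1.21% were the nearest gene of an OCR-only site within 50 kb and 4.63% of a shared site. Of 40 genes of PU.1 and myeloid differentiation, 1 (Cebpa) was the nearest gene of an OCR-only site within 50 kb, as was 1 (Fli1) of 32 stem cell transcription factors, 1 (Blnk) of 22 lymphoid genes, 0 of 25 stem cell surface receptors, 0 of 21 erythroid and megakaryocyte genes and 0 of 54 cell cycle genes. Shared sites had 5, 13, 2, 5, 4 and 4 of these lists in the same order. Of 180 genes that rise with age, 4 had an OCR-only site within 50 kb, namely Wwtr1, Cyp26b1, Fhl1 and Stxbp4, and 14 had a shared site. Of the 4, Wwtr1 and Cyp26b1 were lower in OCR, while 97 of the whole list of 180 were lower and 1 higher. None of 39 genes that fall with age had such a site.

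The myeloid factor gene Cebpa had an octamer at its site but little RNA, with 0.459, 1.08, 0.633 and 0.902 CPM in OAL and 0.411, 0.466, 0.436 and 0.719 CPM in OCR. The groups overlapped, with a log2 fold change of −0.57 ± 0.43 (SE) and an edgeR adjusted p of 0.586. Fli1, an ETS factor of HSCs and megakaryocytes, had 332, 346, 330 and 301 CPM in OAL and 303, 356, 300 and 331 CPM in OCR, which overlapped, with an edgeR adjusted p of 0.989. Its site had 22.5, 21.5, 22.7 and 18.9 CPM of accessibility in OCR and 24.1 and 19.3 CPM in OCRRF, overlapping as well. Blnk, the B cell linker gene, had a log2 fold change of −0.03 with an edgeR adjusted p of 0.976. Fhl1 and Stxbp4 had −0.16 with 0.313 and −0.10 with 0.63 in edgeR.

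Spi1 itself had a PU.1 site shared by all 6 libraries 0.722 kb from its start site, and its nearest OCR-only site was 30.2 kb away. Spi1 RNA was 49.9, 56.4, 52.0 and 54.4 CPM in OAL, 60.1, 60.2, 54.5 and 54.7 CPM in OCR, and 45.1 and 47.7 CPM in OCRRF. OCR and OAL overlapped, with a log2 fold change of 0.13 ± 0.084 (SE) and an edgeR adjusted p of 0.517. Kdr, the VEGF receptor gene, had a shared site at 2.66 kb and its nearest OCR-only site at 248 kb. Of the other genes that the study names for CR, Spib was 22.0 kb and Ect2 56.6 kb from an OCR-only site, and Bmpr1a, Clu, Osmr, Mcm5, Mki67 and Chek1 were all over 1000 kb from one.

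Histone marks at the start sites of the nearest genes were available for OCR. The trimethyl mark on lysine 4 of histone H3, found at active promoters, had median signals of 26.4 and 25.7 in the 2 libraries at nearest genes of OCR-only sites, against 16.9 and 16.1 over all protein-coding genes and 28.0 and 27.0 at nearest genes of shared sites. At promoter sites the medians were 34.0 and 32.8. The repressive mark on lysine 27 had medians of 0.229 and 0.242, against 0.327 and 0.333 over all genes. These start sites thus lay toward the active side of all genes on both marks, as did those near shared sites.

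Total counts were 23497989 to 34385179 per old RNA-seq library, 17194907 to 35676728 per young library and 15721335 to 19558148 per ATAC-seq library. HSC markers, 7 genes including Kit, Slamf1 and Procr, summed to 3823 to 4467 CPM in OAL, 3343 to 4033 in OCR and 3207 to 3326 in OCRRF. The globin gene Hba-a1, an erythroid marker, had mean levels of 31.4 CPM in OAL, 6.91 in OCR and 21.8 in OCRRF, and the globin gene Hbb-bs 70.1, 15.0 and 44.3 CPM. B cell markers summed to 1.28 to 3.63 CPM in OCR and 5.30 to 7.75 in OCRRF, T cell markers to at most 3.72 CPM, granulocyte markers to 2.94 to 73.1 CPM in OCR and 59.8 to 62.4 in OCRRF, monocyte and macrophage markers to 350 to 445 CPM in OAL and OCR, mostly Lyz2, and megakaryocyte markers to 60.7 to 73.6 CPM in OAL, 59.9 to 116 in OCR and 45.1 to 51.5 in OCRRF. In the young libraries, B cell markers summed to 8.48 to 53.2 CPM in YAL and 10.7 to 57.3 CPM in YCR. Granulocyte markers there summed to 1.80 to 483 CPM in YAL and 2.17 to 219 CPM in YCR. No marker was at 0 in every library. Their part in the RNA differences was not tested.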

How the data were processed

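PU.1 peaks were called with MACS2 on each library by the authors, who deposited a score, a fold enrichment (a ratio to background), and the p-value and q-value as −log10, for every peak. RNA-seq counts per gene and ATAC-seq counts in 131918 consensus peaks were deposited by the authors, who mapped reads to mm10 with STAR (RNA, counted with featureCounts) or BWA (DNA). How strand and multi-mapping reads were counted is not given in the sources used here, so overlapping and near-identical genes are uncertain. The authors deposited the histone marks as signal per base at start sites, scaled to a fixed number of reads. The study lists the reads of each ChIP-seq library, but the peak and signal values carry no count per region. The knockdown and refed young libraries were not used here.

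Peaks of the 6 libraries were overlapped by at least 1 bp. Each summit was assigned to the nearest start site of 21683 protein-coding genes of GENCODE that are also in the count table, with promoters within 1 kb. Motif letters and sequences came from the GRCm38.p6 genome of RefSeq. Low counts were removed with filterByExpr, TMM factors were applied, and the quasi-likelihood test (glmQLFit, glmQLFTest) was run in edgeR 4.0.16 (R 4.3.3), each comparison on its own groups, with Benjamini-Hochberg adjustment over all features. An RNA call had an adjusted p below 0.05 and a fold above 1.2, and an ATAC call a fold above 1.5 and a mean log2 CPM above 1.5 as well, which are the study's limits. SEs were the absolute log2 fold change over the square root of F. CPM values were normalized by TMM library sizes. DESeq2 1.42.0, its size factors in edgeR, other filters, the replicate block, no limit on fold, and the omission of single libraries were alternatives. Each fit was tested on simulated data. Replicate numbers were not taken as pairs in the main fits.

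Genes named in the text were the nearest genes of the 10 sites with the largest smaller fold enrichment in both OCR libraries, the genes with a site within 50 kb and the 10 largest increases (5 existed) and decreases called between OCR and OAL that averaged 5 CPM or more with the groups apart, sites in called ATAC-seq peaks, members of the gene lists, and 10 genes that the study names. Some items that the rule or the marker lists name are not reported here. Genes at the edge of the rule, genes with 2 sites, Commd7 and the other Adgrl2 site were picked with their values in view. The sites and the lists were chosen with earlier results of these data known, and the aging lists are those the study used.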

Additional observations from a re-analysis of the deposited data

Results flagged for a closer look

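In 67 groups of 4 libraries of the genes and sites named above, a single library stood apart from the other 3 in 3 groups, by Dixon's criterion for the gap to the nearest library relative to the range. Chance alone gives about 5% of groups. Sept11 RNA in OCR replicate 2 was 127 CPM, while the other OCR libraries were 99.6 to 104 CPM. ATAC-seq at the Bcr site in OCR replicate 2 was 18.5 CPM, against 20.3 to 20.4 CPM in the others. At the Rnpep site OCR replicate 4 was 19.8 CPM, against 17.3 to 17.7 CPM.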

How the results depend on the processing

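The number of OCR-only sites was 365 by the rule. It was 2281 with replicate 1 of each diet alone, 1272 with replicate 2 alone and, chosen after the data were seen, 50 with the same number of peaks in every library. Leaving out a library gave 423 to 1851 sites, the highest without OCR replicate 2. The other peak alternatives, stricter q limits and a wider margin included, gave 343 to 365. The octamer share was 30.1% and was 25.2% in a window of 50 bp on either side.

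For OCR versus OAL, calls numbered 1511 in all and 40 at nearest genes. Without each library in turn they were 1106 to 1655 and 30 to 46, and no alternative moved either by over 1.5 times. For OCRRF versus OCR, calls numbered 1110 and 28, with DESeq2 2297 and 48, and without each library in turn 352 to 2755 and 4 to 55, by over 1.5 times without OCRRF replicate 1, OCRRF replicate 2, OCR replicate 2 and OCR replicate 3. For YCR versus YAL, 48 genes and 0 nearest genes were called. DESeq2 gave 452 and 7, no filter on low counts 368 and 5, a minimum of 10 counts per library 98, and single omitted libraries 6 to 28 and 0 to 0. Every single omission lowered the count by over 1.5 times. For ATAC-seq, 273 peaks and 1 site were called, with the adjusted p alone 648 and 2, and without each library 98 to 367 and 0 to 2. The 273 were 98 and 119 without OCRRF replicates 1 and 2, and 99 and 139 without OCR replicates 1 and 2.

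The replicate numbers were not taken as pairs, since in no comparison did every same-numbered pair deviate together (correlation above 0.1). Between OCR and OAL, replicates 2 and 3 did, at 0.145 each, while replicates 1 and 4 had −0.00883 and −0.0242. Partial pairing is not covered by this check. With the replicate number as a block, calls were 1430 and 37 for OCR versus OAL, 3437 and 70 for OCRRF versus OCR, 7 for YCR versus YAL, and 764 peaks and 5 sites for ATAC-seq. Under the block Lfng and Synpo lost their calls between OCR and OAL, with edgeR adjusted p of 0.0605 and 0.0576. The cause was not tested for any of these changes.

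With 2 libraries of each PU.1 diet and of OCRRF, a single library can decide a call, and the peak values carry no count per site.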
